A study of Mus musculus with 8 samples.

Results

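The genes described here encode surfactant proteins and other markers of alveolar type II cells: Sftpa1, Sftpb, Sftpc, Sftpd, Muc1, Napsa, Slc34a2, Cxcl15 and Etv5. They were found as the probe sets whose single annotated gene symbol was one of these 9 names. The rule gave 6 genes at 1 probe set each, among 8252 named genes and 12422 probe sets other than controls. These were Sftpb (160891_at), Sftpc (94900_at), Sftpd (102648_at), Muc1 (102918_at), Napsa (101972_at) and Slc34a2 (98994_at). For the other 3, Sftpa1, Cxcl15 and Etv5, no probe set carried the symbol in the annotation used, and they were not analysed here.

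Septal tips, the free ends of the secondary septa that subdivide the air spaces, were taken by laser capture from frozen lung sections of many C57/Bl6 neonates at day 6, and were compared with pooled whole lung of the same strain and age. Both tissues were prepared side by side in experiment 1 and, from other litters, in experiment 2. Every RNA went onto 2 Affymetrix arrays on separate occasions, for 8 arrays of 4 RNA samples. Each RNA was pooled over animals, so the spread between RNA samples is not that between single mice, and whole lung itself contains septal tips. The sample titles and sources name the tips, whereas their description field names whole lung, and the titles were followed. The labels mention amplification for every tip array but for a single lung array, while the design text has both tissues amplified in parallel.

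Pulmonary surfactant is the film of phospholipid and protein that keeps alveoli from collapsing at the end of a breath. It is made by type II cells, the cuboidal secretory cells of the alveolar epithelium, stored in their lamellar bodies and released into the air space. SP-B and SP-C, encoded by Sftpb and Sftpc, are small hydrophobic proteins that spread the lipid film, while SP-A and SP-D, encoded by Sftpa1 and Sftpd, are collectins that bind microbes and regulate surfactant turnover. Napsa encodes an aspartic protease that takes part in the processing of pro-SP-B, Slc34a2 the sodium-phosphate cotransporter of the type II cell surface, and Muc1 a membrane mucin of epithelial cells. Cxcl15 encodes a chemokine of lung epithelium and Etv5 an ETS transcription factor of type II cells. Sftpb, Sftpd and Muc1 are known to be expressed in airway epithelium as well.

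The promoters of a surfactant gene and of a mucin gene among the members are shown to set their sequence beside the measurements below. They are the 250 bases before the transcription start in RefSeq on GRCm38.p6, plus strand, at chr6:72304360-72304609 for Sftpb and at chr3:89228806-89229055 for Muc1. Capitals mark 3 strings searched on both strands: CTCAAG, which holds the core bound by the lung homeobox factor Nkx2-1, TGTTTG, of the kind bound by forkhead factors, and TATAAA, the TATA box.
Sftpb: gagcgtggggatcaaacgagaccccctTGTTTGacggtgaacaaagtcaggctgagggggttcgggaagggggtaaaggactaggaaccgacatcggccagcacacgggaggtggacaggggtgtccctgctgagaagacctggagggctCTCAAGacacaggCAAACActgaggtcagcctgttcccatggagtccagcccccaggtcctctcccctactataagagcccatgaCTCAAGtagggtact
Muc1: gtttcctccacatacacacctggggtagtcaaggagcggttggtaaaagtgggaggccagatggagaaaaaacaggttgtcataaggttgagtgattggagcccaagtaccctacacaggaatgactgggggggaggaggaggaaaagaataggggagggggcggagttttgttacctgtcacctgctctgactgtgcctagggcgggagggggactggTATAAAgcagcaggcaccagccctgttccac
In Sftpb, CTCAAG began 100 and 15 bases before the start, and TGTTTG began 223 bases before it and, on the other strand, 87 bases before it. In Muc1, TATAAA began 31 bases before the start. Of the 32851 promoters in the table, 13.3% held CTCAAG, 16% held TGTTTG and 12.4% held TATAAA in the same window. The marked strings did not overlap each other, and a match is a description of the sequence only. The promoter of Slc34a2, also in the table, held none of the 3 strings in this window.

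Values are MAS5 signals, an intensity per probe set on a linear scale, and the authors had brought all arrays to the same overall level. Each difference is on the log2 scale of signal plus an offset, tips minus lung, with its standard error. The adjusted p is adjusted by Benjamini-Hochberg over the 7453 probe sets tested with limma, n = 2 RNA samples per group. Of these probe sets, 14.5% were higher and 13.7% lower in tips at an adjusted p under 0.05, 28.3% in either direction, and the median log2 difference was 0.35. The split between higher and lower depended on the scaling: 1084 higher and 1022 lower as reported, 621 and 1011 with quantile normalization, 814 and 1138 with cyclic loess, and 271 and 1512 with median centring. The total of 2106 was 3324 on leaving out the tip RNA of experiment 2, and it was 349 or 556 on leaving out the lung RNA of experiment 1 or 2. The background of an array, the 95th percentile of 19 probe sets for bacterial and yeast transcripts, lay between 487 and 1244 on tip arrays and between 314 and 568 on lung arrays. The ratio of the 3′ to the 5′ Gapdh control probe set is a measure of RNA integrity and amplification. It lay between 4.18 and 12.8 on tip arrays and between 1.95 and 5.49 on lung arrays. The same ratio for actin lay between 23.0 and 139 on tip arrays and between 38.8 and 104 on lung arrays, so the tissues overlapped. The part of either ratio in the results below was not tested. All 6 genes passed the filter on dim probe sets.

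Sftpc showed the largest difference of the 6 genes. Its signal was 103311 and 109392 on the tip arrays of experiment 1 and 102999 and 94374 on those of experiment 2, against 19525 and 23230.5 on the lung arrays of experiment 1 and 30707 and 35077 on those of experiment 2. Every tip array lay above every lung array, and the tip arrays spread less than the lung arrays. Sftpc averaged 102519 ± 5420 in tips and 27135 ± 8142 in lung (SD, n = 2 each), a log2 difference of 1.95 ± 0.40 with a 95% interval from 1.05 to 2.84, or 3.86-fold (limma adjusted p = 0.00856). The highest signal of any probe set lay between 832775 and 924570 on the tip arrays and between 271306.5 and 359966 on the lung arrays. Whether the probes of Sftpc were saturated was not tested. Experiment 1 gave 2.31 and experiment 2 gave 1.58 on the log2 scale, and all 4 array pairs were higher in tips. Of the probe sets tested, 2.75% had a larger difference. The call was lost without the lung RNA of experiment 1, the dimmer of the lung samples, at 1.64 (limma adjusted p = 0.136). The size depended on the scaling, with 2.27 by quantile normalization, 2.999 by cyclic loess and 1.41 by median centring, each with an adjusted p under 0.05. In these bulk samples a different number of cells of a type and a different amount of RNA per cell cannot be told apart.

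**Figure D1:**
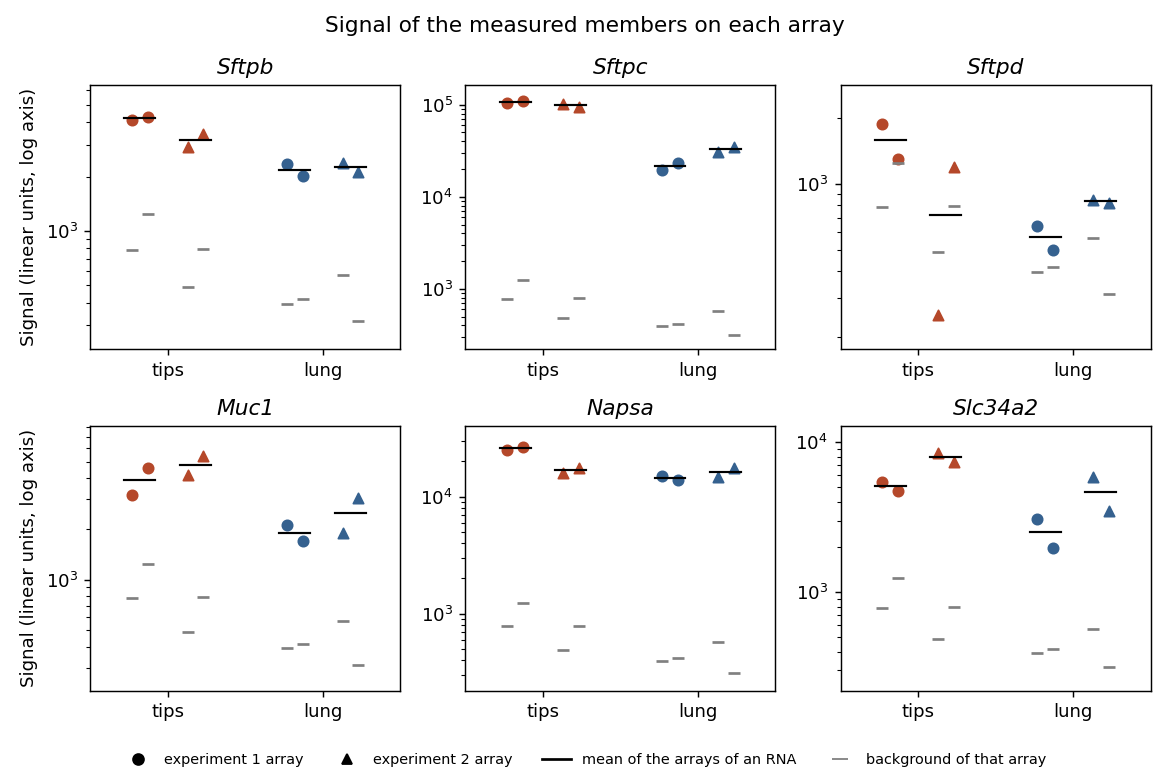
Signal of the 6 measured genes on each array in linear units on a log axis, tips left of lung in each panel, with circles for arrays of experiment 1, triangles for arrays of experiment 2, black bars for the mean of the arrays of an RNA and grey bars for the background of each array. Every tip array of Sftpc, between 94374 and 109392, lies above every lung array, while the groups overlap for Sftpd, Napsa and Slc34a2.

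Sftpb, the other hydrophobic surfactant protein gene, had a signal of 4108 and 4295 on the tip arrays of experiment 1 and 2934 and 3453 on those of experiment 2, against 2355 and 2014 on the lung arrays of experiment 1 and 2369 and 2131 on those of experiment 2. All tip arrays lay above all lung arrays, and the tip RNA of experiment 1 was the brighter of the pair. Sftpb averaged 3697 ± 713 in tips and 2217 ± 46.4 in lung (SD, n = 2 each), a log2 difference of 0.69 ± 0.31 that did not pass (limma adjusted p = 0.119). Its 95% interval ran from -0.01 to 1.39. Without the tip RNA of experiment 2 the difference was 0.88. With the 8 arrays as samples and the RNA as a random block it was 0.69 (limma adjusted p = 0.0353). In that fit 2738 probe sets passed, against 2106 as reported, and the arrays of an RNA are technical repeats rather than further replicates. By median centring the difference of Sftpb was 0.15 (limma adjusted p = 0.786).

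Sftpd, the collectin gene, was the only one of the 6 that did not lie above background on every array. Its signal was 1884 and 1296 on the tip arrays of experiment 1 and 250.3 and 1195 on those of experiment 2, against 643 and 497 on the lung arrays of experiment 1 and 843 and 819 on those of experiment 2. The groups overlapped, because array 1 of the tip RNA of experiment 2 was the lowest of all and lay under its background of 487. The arrays of that RNA differed by 1.75 on the log2 scale, whereas repeat arrays of the other 5 genes differed by no more than 0.72. The log2 difference between tips and lung was 0.42 ± 0.50 (limma adjusted p = 0.539), with 1.26 in experiment 1 and -0.42 in experiment 2. Without the tip RNA of experiment 2 it was 1.03 (limma adjusted p = 0.0389). By quantile normalization, cyclic loess and median centring it was -0.06, -0.06 and -0.12, so no direction can be given for Sftpd.

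Muc1, the membrane mucin gene, passed the threshold by a narrow margin. Its signal was 3192 and 4609 on the tip arrays of experiment 1 and 4153 and 5416 on those of experiment 2, against 2108 and 1692 on the lung arrays of experiment 1 and 1890 and 3047 on those of experiment 2. All tip arrays lay above all lung arrays, though the lowest tip array and the highest lung array were close. Muc1 averaged 4342 ± 625 in tips and 2184 ± 402 in lung (SD, n = 2 each), a log2 difference of 0.95 ± 0.31 with a 95% interval from 0.25 to 1.66 (limma adjusted p = 0.0484). The experiments gave nearly the same value, 0.97 in experiment 1 and 0.94 in experiment 2. The difference was positive under all 19 alternatives and passed under 7 of them, and by median centring it was 0.41 (limma adjusted p = 0.431). The call was lost on leaving out either lung RNA, at 0.79 without experiment 1 and 1.12 without experiment 2, and also the tip RNA of experiment 2, at 0.81.

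Slc34a2, the phosphate cotransporter gene, was higher in experiment 2 than in experiment 1 in both tissues. Its signal was 5386 and 4753 on the tip arrays of experiment 1 and 8524 and 7339 on those of experiment 2, against 3059 and 1968 on the lung arrays of experiment 1 and 5824 and 3470 on those of experiment 2. The groups overlapped over all arrays, but within each experiment both tip arrays lay above both lung arrays. The log2 difference was 0.90 ± 0.38 (limma adjusted p = 0.0990), with 1.00 in experiment 1 and 0.79 in experiment 2. With the experiment as a block, which takes out what tips and lung of an experiment share, the same difference passed (limma adjusted p = 0.0379), where 17.4% of the probe sets tested were called higher. It also passed by cyclic loess, at 1.17, without the tip RNA of experiment 1, at 1.21, and with the RNA as a random block, and by median centring it was 0.36.

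Napsa, the protease gene, was brighter in tips on both arrays of experiment 1, while the tissues overlapped in experiment 2. Its signal was 25135 and 26637 on the tip arrays of experiment 1 and 15948 and 17647 on those of experiment 2, against 15050 and 13857 on the lung arrays of experiment 1 and 14821 and 17705.5 on those of experiment 2. The tip arrays of experiment 2 lay within the range of the lung arrays. The log2 difference was 0.44 ± 0.34 (limma adjusted p = 0.333), from 0.84 for experiment 1 and 0.05 for experiment 2. The difference between experiments was not tested. The value of Napsa depended on the scaling, at 1.16 by quantile normalization (limma adjusted p = 0.0469), 1.24 by cyclic loess (limma adjusted p = 0.0257) and -0.10 by median centring.

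In all, 2 of the 6 genes passed in the direction of higher signal in tips and 0 in the other, against 14.5% of all probe sets tested called higher. At an unadjusted limma p under 0.05, Slc34a2 joined Sftpc and Muc1. The share of all probe sets under that threshold was not counted, but it is no smaller than the 28.3% called in either direction by adjusted p. For 3 of the 6, Sftpb, Sftpc and Muc1, all 4 tip arrays lay above all 4 lung arrays, as they did for 24.1% of the probe sets tested, and the reverse held for 18% of those and for 0 of the 6. The median log2 difference of the 6 was 0.79, against 0.35 over all probe sets. It was 1.04 by quantile normalization with 2 genes called higher, 1.07 by cyclic loess with 4, and 0.25 by median centring with 1. The 2 arrays of each RNA were hybridised at different times, and within each set of arrays Sftpc passed alone among the 6, at 2.07 on the first arrays (limma adjusted p = 0.0177) and 1.83 on the second (limma adjusted p = 0.0192). In these sets 6.86% and 8.77% of the probe sets were called higher.

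**Figure D2:**
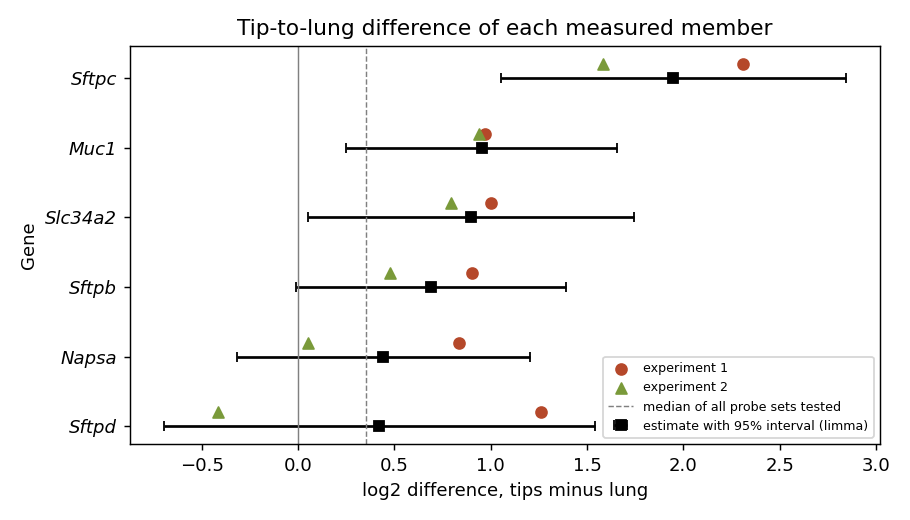
Log2 difference of tips minus lung for the 6 genes, with squares and bars for the limma estimate and its 95% interval (n = 2 RNA samples per group), circles for experiment 1, triangles for experiment 2 and a dashed line at the median of all probe sets tested, 0.35. Sftpc stands at 1.95, the intervals of Sftpb, Napsa and Sftpd include 0, and the experiments differ most for Sftpd.

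To ask whether the other genes differed from Sftpc itself, every probe set was taken relative to Sftpc in the same RNA sample, which removes any common scaling factor of an array. Relative to Sftpc, the tip-to-lung difference was -1.26 for Sftpb, -1.53 for Sftpd, -0.99 for Muc1, -1.50 for Napsa and -1.05 for Slc34a2. Sftpb, Sftpd and Napsa passed (limma adjusted p = 0.0309, 0.0204 and 0.00694), where 65.2% of all probe sets tested were called lower relative to Sftpc and 0.121% higher. Every value in this fit holds the error of Sftpc, and limma took the prior degrees of freedom as infinite, which makes these p-values too small. With the 9.05 degrees of freedom of the comparison of tips with lung, an alternative chosen after the data were seen, Napsa still passed (limma adjusted p = 0.0351). Sftpb and Sftpd then did not (limma adjusted p = 0.0716 and 0.0580), and 51.4% of all probe sets were called lower. With the experiment as a block, Sftpb did not pass (limma adjusted p = 0.0836). In the first fit each of the 3 calls was lost on leaving out some RNA sample. Napsa lost its call without either tip RNA, at -1.76 and -1.25, and without the lung RNA of experiment 1, at -1.28. Sftpb lost its call on leaving out the same 3 RNA samples, at -1.40, -1.12 and -0.97. Sftpd passed without the tip RNA of experiment 1, at -2.08, and lost its call on leaving out any of the other 3, between -1.61 and -0.97. The 95% intervals at 9.05 degrees of freedom ran from -2.20 to 0.21 for Muc1 and from -2.23 to 0.13 for Slc34a2, so neither a difference from Sftpc nor its absence is shown for these.

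**Figure D3:**
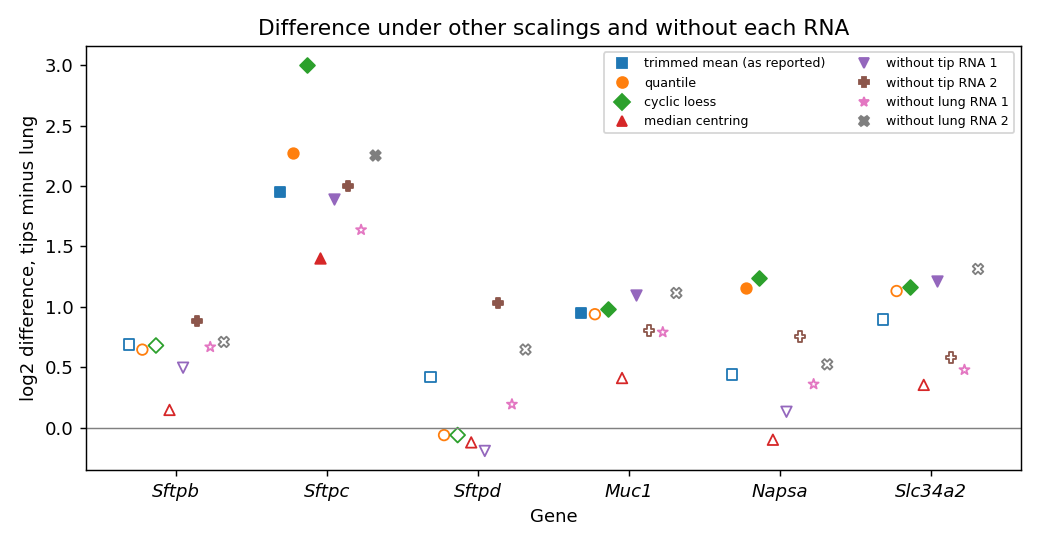
Log2 difference of tips minus lung for the 6 genes under the scaling as reported, under 3 other scalings and without each RNA sample in turn, with filled symbols where the limma adjusted p was under 0.05 and open symbols otherwise. Sftpc stays between 1.41 and 2.999 and passes in all but 1 of these settings, whereas Sftpd and Napsa fall on either side of 0.

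Over the 8 arrays, the genes outside the members whose log2 values were most like those of Sftpc were Mprip, Rpl19, Rpl41, Csrp1, Tbx2 and Agrn, with Pearson r of 0.996, 0.996, 0.993, 0.990, 0.990 and 0.989. Mprip encodes a myosin phosphatase-interacting protein, Csrp1 a LIM protein of smooth muscle, Tbx2 a T-box factor of lung mesenchyme and Agrn a basement membrane proteoglycan. Their log2 differences between tips and lung lay between 0.98 and 3.13. The members themselves were less like Sftpc, with r of 0.88 for Sftpb and for Muc1, 0.75 for Slc34a2, 0.72 for Napsa and 0.34 for Sftpd. A higher r with Sftpc than that of Sftpb was seen for 10.8% of the probe sets tested. This share was 11.5% for Muc1, 24.9% for Slc34a2, 27.4% for Napsa and 49.9% for Sftpd. These arrays come from 4 RNA samples and share the contrast of tissues, so the values of r are a description.

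Among 16 further genes of type II cells, 9 were tested and 0 passed with limma, and 0 had an unadjusted p under 0.05 at the brightest probe set. Their median log2 difference was 0.53, against 0.31 over all 5642 genes, of which 14.6% were called higher and 15.1% lower. Those with the smallest p were Lyz2, a lysozyme gene of macrophages and type II cells, at 0.60 ± 0.30 (limma adjusted p = 0.160), the claudin gene Cldn3 at 1.01 ± 0.55, Dlk1 at 0.55 ± 0.33 and the fatty acid-binding protein gene Fabp5 at 0.53 ± 0.33. Lyz2 passed by quantile normalization, at 1.30, and by cyclic loess, at 1.37, but not in the blocked fit (limma adjusted p = 0.169). Another probe set of Lyz2, too dim to be tested, gave -1.09 in experiment 1 and -0.92 in experiment 2. Ctsh, a cathepsin that also takes part in SP-B processing, gave -0.21 and Lpcat1, an acyltransferase that makes dipalmitoyl phosphatidylcholine, gave 0.59. The lipocalin gene Lcn2 gave 0.50 at its brighter probe set and 1.51 at a dimmer one (limma adjusted p = 0.0510, or 0.0388 when the experiment was a block). The median of the list was -0.01 by median centring.

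Of 11 tested genes of surfactant lipid synthesis, 1 rose and 4 fell (9.1% and 36.4%, against 14.6% and 15.1% of all genes). The median of the list was 0.24, and it was -0.17 by quantile normalization, -0.10 by cyclic loess and -0.30 by median centring. Chpt1, which encodes the cholinephosphotransferase of the last step of phosphatidylcholine synthesis, averaged 438 in tips and 3182 in lung. None of the 4 tip arrays showed it above background. The signal in lung was at least 4.05-fold higher than in tips, taken against the background or the signal of each tip array, whichever was higher (limma adjusted p = 0.00184). Pcyt1a, which encodes the rate-limiting enzyme of that pathway, fell by 1.35 ± 0.32 (limma adjusted p = 0.0163), but another probe set gave 0.32 (limma adjusted p = 0.616). The desaturase gene Scd1 fell by 1.49 (other probe sets gave -0.59 and 0.03) and the citrate lyase gene Acly fell by 1.19, while Fasn, which encodes fatty acid synthase, rose by 0.92 (limma adjusted p = 0.0484). Chpt1 and Pcyt1a passed under all 5 scalings, the trimmed mean used here, quantile normalization, cyclic loess, median centring and no rescaling, while Scd1, Acly and Fasn did not. Of these scalings, no rescaling nearly repeats the trimmed mean, with 2105 probe sets called against 2106. The desaturase gene Scd2 gave -0.13 at its brightest probe set and 1.31 at another (limma adjusted p = 0.0379). Srebf1, the transcription factor gene of lipid synthesis, gave 1.28 (limma adjusted p = 0.0506, or 0.0176 in the blocked fit).

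Of 17 regulators of surfactant genes, 13 were tested, and 2 rose (15.4%, near the 14.6% of all genes) and 0 fell (against 15.1%). The median was 0.44, and -0.10 by median centring. Stat3, a signal transducer of cytokine receptors, rose by 1.17 ± 0.30 (limma adjusted p = 0.0203) and did not pass by median centring. Another probe set of Stat3 gave 0.76 (limma adjusted p = 0.172). Egfr, the epidermal growth factor receptor gene, lay above background on 3 of 4 tip arrays and 0 of 4 lung arrays. Tips were at least 2.01-fold brighter (limma adjusted p = 0.0363). The call held under 2 of the 5 scalings, the trimmed mean and no rescaling, which nearly repeats it. Other probe sets of Egfr were too dim to be tested. One gave 0.0014 in experiment 1 and 0.0373 in experiment 2, and another gave 0.94 and 1.07. Klf5 gave 0.95 ± 0.35 (limma adjusted p = 0.0694, or 0.0830 in the blocked fit). Nfib, a nuclear factor I gene of lung maturation, gave 0.91 ± 0.34 (limma adjusted p = 0.0754, or 0.0370 in the blocked fit). Of the forkhead and C/EBP factors known to act on surfactant genes, Cebpd gave 0.96 (limma adjusted p = 0.0978), Cebpa 0.22, Cebpb -0.06, Foxa2 -0.54 and Foxa1 -0.75, and none of these passed.

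**Figure D4:**
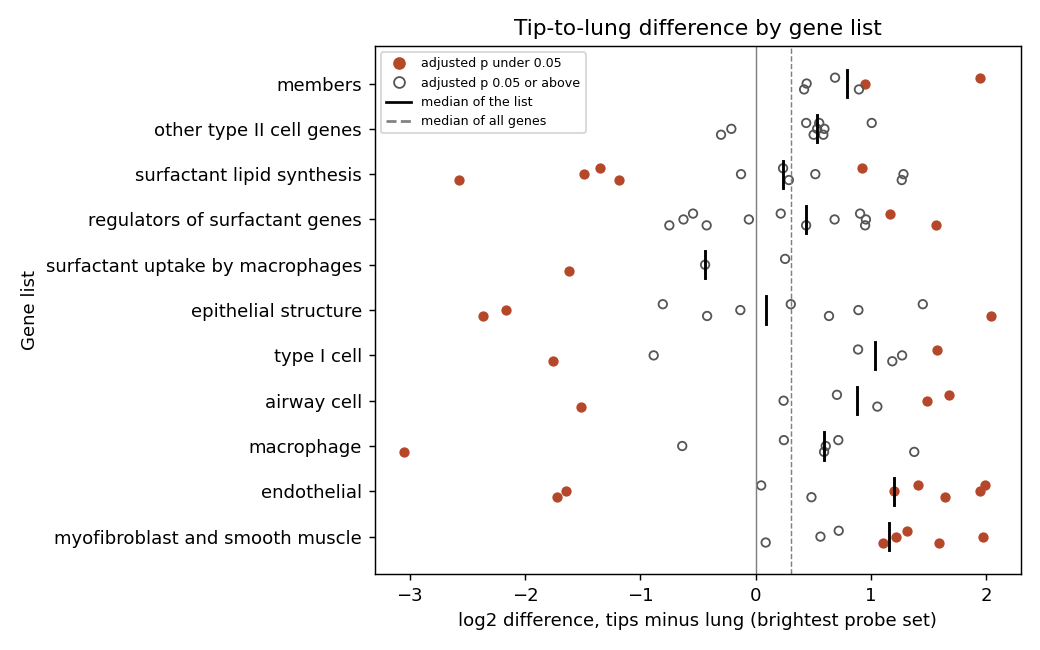
Log2 difference of tips minus lung at the brightest tested probe set of each gene, by gene list, with filled points for a limma adjusted p under 0.05, open points otherwise, a black bar at the median of each list and a dashed line at the median of all genes, 0.31. The 6 members, 2 of them called, lie between 0.42 and 1.95, and the 8 myofibroblast and smooth muscle genes lie between 0.09 and 1.97. The lists of lipid synthesis, epithelial structure, type I, airway and endothelial genes hold called genes on either side of 0.

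Some markers of the other cells that tips and lung could hold were called as well, and their part in the results above was not tested. Over all genes, 14.6% were called higher and 15.1% lower. Of 10 genes of epithelial structure tested, 1 rose and 2 fell: the tight junction gene Tjp1 fell by 2.36, the desmosome gene Dsp fell by 2.17, and the keratin gene Krt19, under background on all 4 lung arrays, was at least 2.55-fold brighter in tips. By median centring 0 were called higher and 2 lower. Krt8 gave 1.45 (limma adjusted p = 0.0689, or 0.0182 in the blocked fit), and Cdh1, the E-cadherin gene, gave -0.13 ± 0.31. The summed signal of the list was 25980 to 32300 on tip arrays and 91933 to 92882 on lung arrays, and Tjp1 alone averaged 14506 in tips and 74521 in lung. Relative to the mean log2 value of these 10 genes, a scaling chosen after the data were seen, Sftpc gave 2.00 (limma adjusted p = 0.0117) and Muc1 1.01 (limma adjusted p = 0.0809).

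Of 6 type I cell genes tested, 1 rose and 1 fell (16.7% each, against 14.6% higher and 15.1% lower over all genes). In this list 4 had a positive difference and the median was 1.04. Vegfa rose by 1.58, a call that held under 2 of the 5 scalings, the trimmed mean and no rescaling, which nearly repeats it. Hopx fell by 1.76, a call that held under 3, these and median centring. By median centring 0 were called higher and 2 lower, and by quantile normalization and by cyclic loess 1 higher and 0 lower. Cav1 gave -0.88 (limma adjusted p = 0.0637, or 0.0582 in the blocked fit). Emp2 gave 1.27 and Ager 0.89 (limma adjusted p = 0.0685 and 0.0845, or 0.0223 and 0.0419 in the blocked fit). The summed signal of the type I list was 41333 to 50224 on tip arrays and 73028 to 84028 on lung arrays. The genes lower in tips carried most of the lung sum: Hopx averaged 11224 in tips and 38407 in lung, and Cav1 17581 in tips and 32467 in lung.

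Of 6 airway genes, 2 rose and 1 fell (33.3% and 16.7%, against 14.6% and 15.1% over all genes), with a median of 0.88. Foxj1, the transcription factor gene of ciliated cells, rose by 1.68, the club cell gene Scgb1a1 rose by 1.49, and Aldh1a1 fell by 1.51, while another probe set of Aldh1a1 gave 0.84. By median centring 0 were called higher and 1 lower, by quantile normalization 1 higher and 0 lower, and by cyclic loess 2 higher and 0 lower. Over the 19 alternatives Foxj1 passed in 14, Aldh1a1 in 10 and Scgb1a1 in 9. The summed signal of the airway list was 41646 to 106250 on tip arrays and 42167 to 65698 on lung arrays.

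Of 7 macrophage genes, 0 rose and 1 fell, against 14.6% higher and 15.1% lower over all genes. The cathepsin gene Ctss fell by 3.05. The median of the list was 0.59 and 5 of the 7 had a positive difference. Among these were the galectin gene Lgals3 at 1.38 (limma adjusted p = 0.0882, or 0.0492 in the blocked fit), Cd68 at 0.72, Csf1r at 0.61 and Itgax at 0.59. The summed signal was 14622 to 18213 on tip arrays and 35389 to 53484 on lung arrays, and Ctss alone averaged 4040 in tips and 34698 in lung. Of 8 genes of surfactant uptake by macrophages, 3 were tested and 4 lay under background on every array of both tissues. The mannose receptor gene Mrc1 averaged 386 in tips and 1134 in lung and was called lower (limma adjusted p = 0.0423), but it was above background on 1 of 4 tip arrays and on 4 of 4 lung arrays, so the size of its difference is not given.

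Of the endothelial genes 5 of 9 were called higher and 2 lower, and of the contractile genes 5 of 8 were called higher and 0 lower, against 14.6% higher and 15.1% lower over all genes. By median centring these counts were 2 higher and 2 lower of the endothelial genes, and 2 higher and 0 lower of the contractile genes. Eng, Tie1, Icam2, Pecam1 and Cldn5 rose, with Eng the largest at 1.99, and Emcn fell by 1.64 and Tek fell by 1.72, while Tagln, Actg2, Myh11, Myl9 and Des rose, with Tagln the largest at 1.97. By median centring Eng, Pecam1, Cldn5, Myh11, Myl9 and Des did not pass. Des did not pass by quantile normalization or cyclic loess either. The summed endothelial signal was 370087 to 381294 on tip arrays and 107134 to 152814 on lung arrays, and Eng alone averaged 299361 in tips and 77525 in lung. The summed contractile signal was 82612 to 203042 on tip arrays and 57810 to 111285 on lung arrays. The elastin gene Eln, which did not pass, averaged 100413 ± 69382 in tips and 55850 ± 24318 in lung (SD, n = 2 each) and carried most of that sum.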

How the data were processed

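The intensities are MAS5 output deposited by the authors, as the submitters' processing notes name it without a version. Their trimmed means (outer 2% of probe sets at each end left out) were nearly equal on all 8 arrays. Here each array was rescaled to 1501, the mean of these, 150.1 (10% of it) was added and log2 taken, so differences of dim probe sets are understated. The 66 control probe sets and those under the 40th percentile of mean log2 value were left out, and 7453 of 12488 were tested. Of all probe sets 10855 had 1 symbol, 396 several and 1237 none. For 10839 the symbol was taken by gene ID from the GRCm38.p6 RefSeq table, whether or not it changed. The promoters at hand covered 6 of the 9 genes, and of the measured genes only Sftpb, Muc1 and Slc34a2.

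The arrays of an RNA were averaged and the RNA samples compared by limma 3.58.1 in R 4.3.3 (lmFit, eBayes with trend, 2 residual and 7.05 prior degrees of freedom), after a test on simulated data. With 2 RNA samples per group the median standard error was 0.40. The design text has tips and lung of an experiment amplified and hybridised in parallel, so the experiment number pairs them, and their deviations correlated at 0.0452.

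The members, lists and tests were chosen with earlier results of these data known. The text names all members, up to 4 genes of each list by smallest p with any past the threshold, and the 6 genes most like Sftpc. Cdh1, Ager, Cebpa, Cebpb, Cebpd, Eln, Foxa1, Foxa2, Ctsh, Lpcat1 and Scd2, and Lcn2 at its dimmer probe set, were added after their values were seen. Cd68 and Srebf1 are also named outside that rule. Each listed gene stands at its brightest tested probe set, and further probe sets too dim to be tested are given only for Egfr and Lyz2. Alternatives were other scalings, offsets, floors and filters, single arrays, blocks and leaving out each RNA.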

Additional observations from a re-analysis of the deposited data

How the results depend on the processing

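Of 19 alternatives, Sftpc kept its direction in all and its call in 18, between 1.41 and 2.999. Without 1 RNA sample it ranged from 1.64 to 2.26, and the number of called probe sets from 349 to 3324, against 2106 as reported. In those fits the group left with 1 RNA is assumed to vary like the other. With values under 1244, the highest background of any array, set to it, 822 probe sets passed (those at this floor on every array were left out), and with array 1 of each RNA alone 1229. Sftpd reversed to -0.0605 by quantile normalization, -0.0601 by cyclic loess and -0.12 by median centring, and ranged from -0.19 to 1.03 without 1 RNA sample. Napsa reversed to -0.10 by median centring. The cause was not tested. Relative to Sftpc, 4866 probe sets passed, and 2597 to 4758 without 1 RNA sample. In the paired fit, with the experiment as replicate block, 2452 probe sets passed. It took 18.1 prior degrees of freedom against 7.05 in the main fit, and what the pairing itself added was not tested. For listed genes its p is given mostly where it fell under 0.05. In the paired fit Slc34a2 gained its call at 0.90 and Sftpb relative to Sftpc lost it at -1.26, and no other call of a member changed. Among the members, signal over background limits Sftpd.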
